A study of Homo sapiens with 4 samples.

Results

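The 10 genes described here are CXCL1, CXCL2, CXCL3, CXCL8, BIRC3, NFKBIA, TNFAIP3, PTGS2, ICAM1 and RELB, named targets of the transcription factor NF-kB. They were taken by symbol from a table of 62710 Ensembl genes, and each symbol matched an Ensembl identifier in the table. The human gastric cancer lines HGC27 and MKN45 were each kept for 24 h in 0.3 µM periplocymarin, a cardiac glycoside that blocks the sodium-potassium pump, or in 0.1% DMSO as the vehicle. In all there were 4 poly(A) RNA libraries, namely periplocymarin HGC27, DMSO HGC27, periplocymarin MKN45 and DMSO MKN45, so every combination of line and treatment had 1 library and no replicate stands behind a difference within HGC27 or within MKN45. HGC27 derives from an undifferentiated gastric carcinoma, and MKN45 is a poorly differentiated adenocarcinoma line.

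NF-kB dimers are held in the cytoplasm of resting cells by IkB proteins. When the IKK complex marks IkB for destruction, for example after TNF, interleukin-1 or bacterial contact, the dimers enter the nucleus and switch on inflammatory genes together with the genes that end the response. In gastric epithelium the chemokines of this group and PTGS2 are well known for their induction during Helicobacter pylori infection. CXCL1, CXCL2, CXCL3 and CXCL8 are secreted chemokines of the ELR class, which draw neutrophils through the receptor CXCR2, and PTGS2 is the inducible cyclooxygenase that makes the precursor of prostaglandins.

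The promoters of the 4 chemokines are shown first, because they share a kB element, the short sequence that NF-kB dimers bind. The sequences are the 250 bases before the start of each gene in RefSeq (GRCh38.p14), read 5′ to 3′ on the strand of the gene, and 9 of the 10 members had an entry. They lie at chr4:73869143-73869392 for CXCL1 (plus strand), chr4:74099196-74099445 for CXCL2 (minus strand), chr4:74038690-74038939 for CXCL3 (minus strand) and chr4:73740319-73740568 for CXCL8 (plus strand). Capitals mark matches, on either strand, to the NF-kB consensus or to its core GGAATTTCC. The sequences are as follows.
CXCL1: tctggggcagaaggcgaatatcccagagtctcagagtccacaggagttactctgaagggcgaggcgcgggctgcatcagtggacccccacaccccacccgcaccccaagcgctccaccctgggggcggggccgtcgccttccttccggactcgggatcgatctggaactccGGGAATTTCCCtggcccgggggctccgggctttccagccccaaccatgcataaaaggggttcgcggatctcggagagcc
CXCL2: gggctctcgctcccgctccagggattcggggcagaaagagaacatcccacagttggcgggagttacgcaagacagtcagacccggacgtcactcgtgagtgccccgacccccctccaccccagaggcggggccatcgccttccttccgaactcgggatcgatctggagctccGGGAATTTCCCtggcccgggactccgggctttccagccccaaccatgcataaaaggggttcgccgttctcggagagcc
CXCL3: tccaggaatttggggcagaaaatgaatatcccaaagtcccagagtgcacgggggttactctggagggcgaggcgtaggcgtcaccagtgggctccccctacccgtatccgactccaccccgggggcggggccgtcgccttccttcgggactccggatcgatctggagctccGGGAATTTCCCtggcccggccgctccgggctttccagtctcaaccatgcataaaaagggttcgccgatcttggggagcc
CXCL8: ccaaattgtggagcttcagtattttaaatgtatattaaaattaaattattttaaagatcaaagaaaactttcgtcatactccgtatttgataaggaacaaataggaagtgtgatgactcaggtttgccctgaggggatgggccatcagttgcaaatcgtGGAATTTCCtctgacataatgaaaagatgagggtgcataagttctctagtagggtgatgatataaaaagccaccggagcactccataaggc

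CXCL1, CXCL2 and CXCL3 carried the same 11 bases, GGGAATTTCCC, from position -79 to -69 in CXCL1 and CXCL3 and from -78 to -68 in CXCL2, counted from the gene start. CXCL8 carried GGAATTTCC from -91 to -83, with no match to the full consensus, and a further AP-1 motif, TGACTCA, from -137 to -131. Aligned end to end, the promoters of CXCL1 and CXCL3 were identical at 81.4% of 258 aligned columns, those of CXCL2 and CXCL3 at 73.3% and those of CXCL1 and CXCL2 at 70.4%. The CXCL8 promoter was identical to each of these at 42.0% to 45.4% of columns.

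The next promoters are those of BIRC3, at chr11:102317234-102317483 (plus strand), and PTGS2, at chr1:186680424-186680673 (minus strand), whose transcripts were also much higher in treated MKN45, and that of NFKBIA, at chr14:35404750-35404999 (minus strand), whose transcript was not. Capitals mark the same matches in BIRC3 and NFKBIA. In PTGS2, which held neither of them in this window, capitals mark a looser pattern, GGG and CC with any 5 bases between them. The sequences are as follows.
BIRC3: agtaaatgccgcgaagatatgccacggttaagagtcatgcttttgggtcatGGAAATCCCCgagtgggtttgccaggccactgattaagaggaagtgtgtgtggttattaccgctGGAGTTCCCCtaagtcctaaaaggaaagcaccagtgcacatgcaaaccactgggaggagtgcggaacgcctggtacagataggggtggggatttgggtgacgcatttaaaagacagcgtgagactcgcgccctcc
PTGS2: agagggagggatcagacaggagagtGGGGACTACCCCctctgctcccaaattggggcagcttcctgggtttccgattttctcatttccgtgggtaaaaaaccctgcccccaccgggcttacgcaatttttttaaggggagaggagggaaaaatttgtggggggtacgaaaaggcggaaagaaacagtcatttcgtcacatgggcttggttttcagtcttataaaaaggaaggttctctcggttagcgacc
NFKBIA: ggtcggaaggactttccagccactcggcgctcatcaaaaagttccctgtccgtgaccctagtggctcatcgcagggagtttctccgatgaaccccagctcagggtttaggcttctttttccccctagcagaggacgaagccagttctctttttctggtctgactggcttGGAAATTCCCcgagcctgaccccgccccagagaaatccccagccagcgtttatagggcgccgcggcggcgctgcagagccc

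Over 300-base windows that add 50 bases after the start, the NF-kB consensus was found on either strand in 6 of the 9 members and in 10.8% of 27305 RefSeq promoters. The core GGAATTTCC, searched after the promoters had been read, was found in 6 of 9 (CXCL1, CXCL2, CXCL3, CXCL8, NFKBIA and ICAM1) and in 0.472% of promoters. Consensus and core overlap where both occur, and 8 of 9 members held at least either of them, against 11.0% of all promoters. The looser pattern was found in 9 of 9 members and in 58.0% of promoters, so it separates the members little from other genes. TATAAA was found on either strand in CXCL8, NFKBIA, PTGS2 and ICAM1, 4 of 9 members, and in 12.0% of promoters. The NFKBIA match lies on the strand opposite to the gene. The members were named as NF-kB targets, and the promoters of CXCL1, CXCL2 and CXCL3 are alike, so these shares carry no test. A match describes the letters only and does not show that a factor was bound.

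The deposited values are FPKM, which scale reads by gene length and library size, and whole reads were recovered from them for depth and counting error. The recovered totals were 24890885 reads for periplocymarin HGC27, 26817924 for DMSO HGC27, 27660565 for periplocymarin MKN45 and 36565836 for DMSO MKN45. Of 6 epithelial markers (CDH1, EPCAM, KRT8, KRT18, KRT19 and CEACAM6), all 6 were at 1 FPKM or more in both MKN45 libraries and none in either HGC27 library, where their summed level was 0.528 FPKM in periplocymarin and 0.779 FPKM in DMSO. HGC27 held 3 of 4 mesenchymal markers at 1 FPKM or more, VIM, ZEB1 and COL3A1, and the fourth, CDH2, was near 0 in all libraries. Of 6 leukocyte markers only CD68 reached 1 FPKM, in MKN45, while PTPRC and MS4A1 were at 0 in both MKN45 libraries, and none of 3 endothelial markers reached it. Leukocyte markers summed to 0.297 FPKM in periplocymarin HGC27, 0.214 in DMSO HGC27, 2.46 in periplocymarin MKN45 and 1.10 in DMSO MKN45, the last pair coming almost wholly from CD68, and the part of such cells in the results below was not tested.

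The 4 chemokines were almost confined to MKN45 among these libraries and stood higher there after periplocymarin. Their summed level was 0.368 FPKM in periplocymarin HGC27 and 0 in DMSO HGC27, and 43.9 FPKM in periplocymarin MKN45 and 6.83 FPKM in DMSO MKN45. In reads, these sums were 19 and 0 in periplocymarin and DMSO HGC27, and 1728 and 441 in periplocymarin and DMSO MKN45. CXCL8 and CXCL1 had the larger ratios between treatments, and CXCL2 and CXCL3 the smaller ones. In bulk RNA, fewer expressing cells and less RNA per cell cannot be told apart.

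CXCL1 (ENSG00000163739) was at 30.5 FPKM in periplocymarin MKN45 and 3.49 FPKM in DMSO MKN45, from 990 and 175 reads. Both HGC27 libraries were at 0 reads, where a floor of 3 reads is worth 0.0935 FPKM in periplocymarin and 0.0683 FPKM in DMSO. The ratio in MKN45 was 8.74, with a 95% interval of 7.44 to 10.3. These intervals (Clopper-Pearson, from the periplocymarin share of the summed reads) cover counting error only, since no molecular identifiers are given and no library was repeated.

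CXCL8 (ENSG00000169429), also known as interleukin-8, was at 6.85 FPKM in periplocymarin MKN45 and 0.472 FPKM in DMSO MKN45, from 423 and 45 reads. This was a ratio of 14.5 (95% counting interval 10.7 to 20.2). In HGC27 it was at 0.246 FPKM in periplocymarin, from 15 reads, and at 0 reads in DMSO, so it was at least 6.85-fold higher in the treated library against a floor of 3 reads. CXCL8 was thus higher after treatment in both lines, at a level in HGC27 that stayed under 1 FPKM.

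CXCL3 (ENSG00000163734) was at 4.93 FPKM in periplocymarin MKN45 and 2.41 FPKM in DMSO MKN45, a ratio of 2.05 (95% counting interval 1.70 to 2.48), and at 0 in both HGC27 libraries. CXCL2 (ENSG00000081041) was at 1.62 FPKM in periplocymarin MKN45 and 0.466 FPKM in DMSO MKN45, a ratio of 3.48 (95% counting interval 2.11 to 5.88). In HGC27 CXCL2 was at 0.121 FPKM in periplocymarin and at 0 in DMSO. The CXCL2 ratio rests on 54 and 24 reads at the gene length used, and a length of 699 bases fits the values as well, with 27 and 12 reads and an interval of 1.70 to 7.54. Transcripts of CXCL1, CXCL2 and CXCL3 share long stretches, with identical runs of up to 97 bases between CXCL2 and CXCL3, 77 between CXCL1 and CXCL2 and 55 between CXCL1 and CXCL3 in GENCODE 29. How reads that match several of them were counted is not given in the sources used here, so the split between these 3 genes is uncertain. CXCL8 shared no run longer than 18 bases with any of them.

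**Figure D1:**
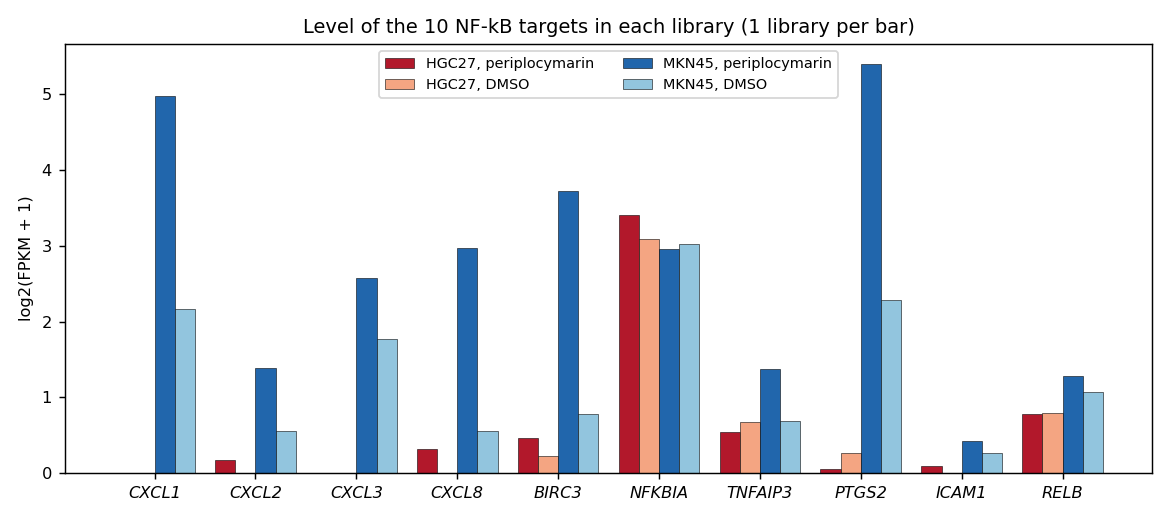
Level of each member on the log2(FPKM + 1) scale, 1 bar per library, with periplocymarin left of DMSO within each line. PTGS2, CXCL1 and BIRC3 are the tallest bars in periplocymarin MKN45, at 41.1, 30.5 and 12.2 FPKM, while only NFKBIA is above 1 FPKM in HGC27.

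PTGS2 (ENSG00000073756) had the highest level of the 10 members in treated MKN45 and differed in opposite directions in the lines. It was at 41.1 FPKM in periplocymarin MKN45 and 3.86 FPKM in DMSO MKN45, from 5378 and 780 reads, a ratio of 10.7 (95% counting interval 9.88 to 11.5). In HGC27 it was at 0.0387 FPKM in periplocymarin and 0.198 FPKM in DMSO, from 5 and 35 reads, a ratio of 0.196 (95% counting interval 0.0598 to 0.502). The HGC27 levels are both under 1 FPKM, and with 4 libraries the difference between the lines cannot be tested.

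BIRC3 (ENSG00000023445), which encodes the cIAP2 ubiquitin ligase that protects cells from TNF-induced death, had, with CXCL8, the largest ratios of the 10 in MKN45, the counting intervals of the pair overlapping. It was at 12.2 FPKM in periplocymarin MKN45 and 0.722 FPKM in DMSO MKN45, from 2180 and 200 reads, a ratio of 16.9 (95% counting interval 14.6 to 19.6). In HGC27 it was at 0.378 FPKM in periplocymarin and 0.169 FPKM in DMSO, from 67 and 41 reads, a ratio of 2.24 (95% counting interval 1.49 to 3.39). BIRC3 was therefore higher after treatment in each line beyond counting error, from a low level in HGC27.

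Of the feedback inhibitors, NFKBIA was nearly level in MKN45, while TNFAIP3 was higher after treatment by a ratio between those of CXCL3 and CXCL2. NFKBIA (ENSG00000100906), which encodes IkB alpha, was the only member above 1 FPKM in all 4 libraries. It was at 9.64 FPKM in periplocymarin HGC27 and 7.54 FPKM in DMSO HGC27, a ratio of 1.28 (95% counting interval 1.16 to 1.41). In MKN45 it was at 6.77 FPKM in periplocymarin and 7.14 FPKM in DMSO, a ratio of 0.949 (95% counting interval 0.851 to 1.06).

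TNFAIP3 (ENSG00000118503), which encodes the ubiquitin-editing enzyme A20, was at 1.58 FPKM in periplocymarin MKN45 and 0.603 FPKM in DMSO MKN45, a ratio of 2.62 (95% counting interval 2.12 to 3.25). In HGC27 it was at 0.452 FPKM in periplocymarin and 0.601 FPKM in DMSO, a ratio of 0.751 (95% counting interval 0.550 to 1.02). TNFAIP3 overlaps WAKMAR2, a gene on the other strand, and since no strand setting is given their reads cannot be told apart.

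RELB (ENSG00000104856), an NF-kB subunit of the non-canonical branch and itself a target, was nearly level. It was at 0.722 FPKM in periplocymarin HGC27 and 0.724 FPKM in DMSO HGC27, and at 1.43 FPKM in periplocymarin MKN45 and 1.10 FPKM in DMSO MKN45. Its ratios were 0.998 in HGC27 (95% counting interval 0.682 to 1.45) and 1.29 in MKN45 (0.984 to 1.70). ICAM1 (ENSG00000090339), the adhesion molecule that leukocyte integrins bind, was the lowest member in MKN45. It was at 0.341 FPKM in periplocymarin MKN45 and 0.197 FPKM in DMSO MKN45, from 28 and 25 reads, a ratio of 1.73 (95% counting interval 0.973 to 3.10), and it had 5 reads in periplocymarin HGC27 and 0 in DMSO HGC27. ICAM1 overlaps the antisense genes LIMASI and ICAM4-AS1, so its few reads are also uncertain in origin.

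**Figure D2:**
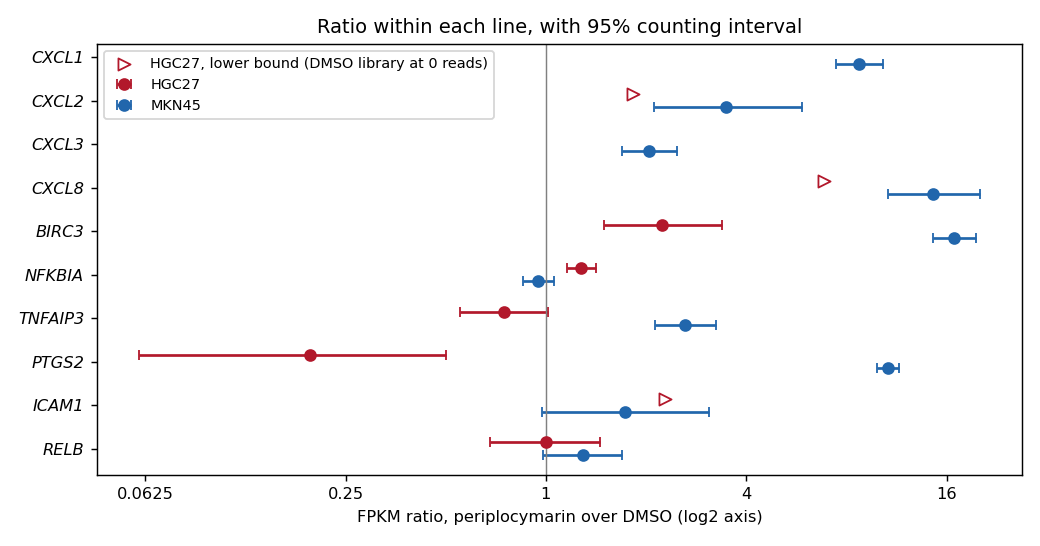
FPKM ratio of periplocymarin over DMSO on a log2 axis, 1 point per member and line, with the 95% counting interval. Open triangles are lower bounds for members at 0 reads in DMSO HGC27. In MKN45, the intervals of NFKBIA, RELB and ICAM1 include 1 and those of the other members lie above it. PTGS2 lies on opposite sides of 1 in the lines.

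For calls within a line, a gene counted as measured if its libraries there averaged 1 FPKM or more. It was called higher or lower if log2(FPKM + 1), periplocymarin minus DMSO, was 1 or more from 0. This scale understates the change of low genes. In MKN45, 9 of the 10 members were measured, all but ICAM1, and 4 were called higher and none lower, where 8.21% of 11895 measured genes were called higher and 8.94% lower. The differences were 3.12 for PTGS2, 2.93 for BIRC3, 2.81 for CXCL1 and 2.42 for CXCL8, which put them at ranks 7, 12, 15 and 32 from the top of the 11895 genes. CXCL2 at 0.84, CXCL3 at 0.80, TNFAIP3 at 0.69, RELB at 0.21 and NFKBIA at -0.07 were not called. CXCL2, CXCL8, BIRC3 and TNFAIP3 were under 1 FPKM in DMSO and were measured only through the treated library, so a difference upward was built into their being counted. The other 5 were at 1 FPKM or more in both libraries, and of these PTGS2 and CXCL1 were called. The median over all measured genes was 0.07. With a pseudocount of 0.1 FPKM in place of 1, the same rule called 7 members and 11.2% of genes higher.

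In HGC27 only NFKBIA was measured, with a difference of 0.32 beside a median of 0.11 over 11821 measured genes, and it was not called (9.72% of genes were called higher and 10.4% lower). The other 9 members were under 1 FPKM on average there, so a response of a given fold in HGC27 would rest on few reads. Scaling libraries to their totals alone, without the composition factor in the deposited values, shifted the median difference of all genes by -0.28 in HGC27 and by -0.18 in MKN45. Under that scaling the NFKBIA difference in HGC27 was 0.01, and PTGS2, BIRC3, CXCL1 and CXCL8 remained at 2.90, 2.73, 2.59 and 2.23 in MKN45.

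**Figure D3:**
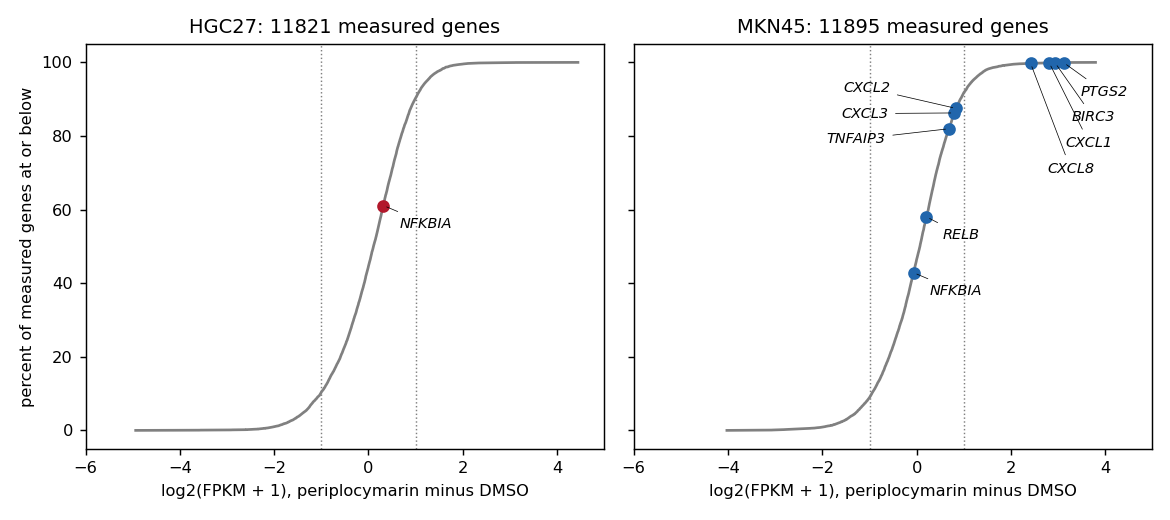
Cumulative share of all measured genes by their difference in log2(FPKM + 1), periplocymarin minus DMSO, with measured members as points and dotted lines at -1 and 1. PTGS2, BIRC3, CXCL1 and CXCL8 sit at the upper end in MKN45, at 2.42 to 3.12, and NFKBIA is the only member that can be placed in HGC27.

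A fit over both lines asked whether a member changed with treatment in HGC27 and MKN45 together. It used log2(FPKM + 1) of all 4 libraries with cell line as a block, in limma, over 12373 genes, and errors after ± are moderated standard errors from limma. Of the 10 members 6 could be tested, and CXCL2, TNFAIP3, RELB and ICAM1 were under the minimum mean of 1 FPKM. None of the 6 passed a Benjamini-Hochberg adjusted p of 0.05, which 3.49% of all tested genes passed upward and 3.29% downward. At an unadjusted p under 0.05, 4 of the 6 were higher, as were 15.8% of all tested genes. BIRC3 and CXCL8 reached the minimum mean only through periplocymarin MKN45, where they were high, so these counts describe the members and support no comparison with other genes. With limma-voom on the recovered reads, CXCL1, CXCL8, BIRC3 and PTGS2 passed, against 7.49% of genes upward, and with a pseudocount of 0.1 FPKM CXCL8 and BIRC3 passed, against 6.10%. CXCL1 had 0 reads in both HGC27 libraries, and PTGS2 had 5 reads in periplocymarin HGC27 and 35 in DMSO HGC27. For CXCL1 and PTGS2 a pass is therefore no sign of a rise in both lines.

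The fitted differences in log2(FPKM + 1), a scale that understates the change of low genes, were 1.59 ± 0.54 for BIRC3 (limma adjusted p = 0.0941) and 1.37 ± 0.47 for CXCL8 (limma adjusted p = 0.0971), both higher in both lines. CXCL1 had 1.41 ± 0.54 (limma adjusted p = 0.128) and PTGS2 1.46 ± 0.61 (limma adjusted p = 0.155), the first higher in MKN45 and at 0 in HGC27, the second higher in MKN45 and lower in HGC27. CXCL3 had 0.40 ± 0.34 (limma adjusted p = 0.468) and NFKBIA 0.13 ± 0.29 (limma adjusted p = 0.804). For the first 4 the lines disagreed by more than these errors, as with PTGS2, whose differences were -0.21 in HGC27 and 3.12 in MKN45. The test has 1 residual degree of freedom per gene and 8.59 prior ones taken from other genes, and it does not test whether the lines differ.

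**Figure D4:**
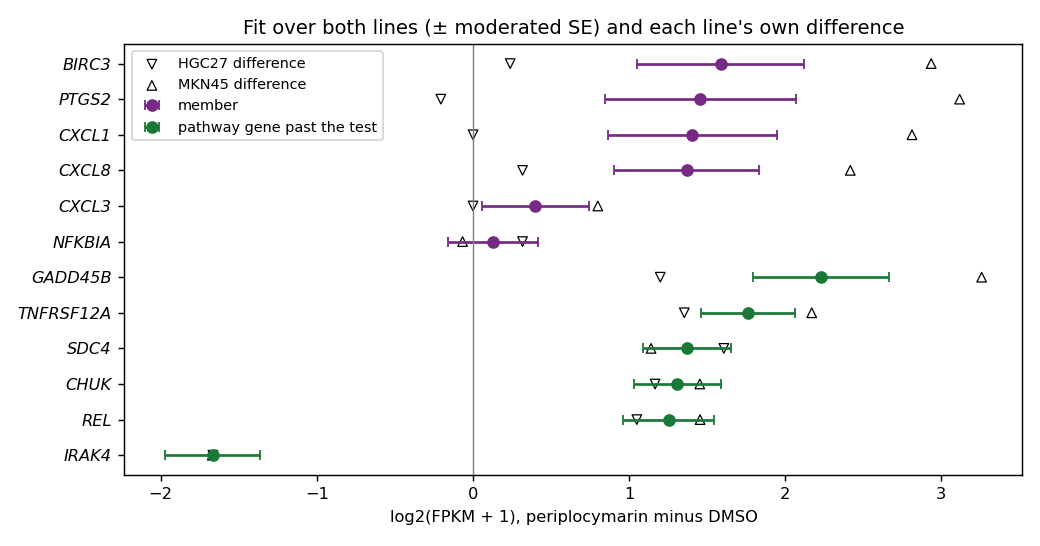
Fitted difference in log2(FPKM + 1) over both lines with its moderated standard error, for the 6 tested members and for the 6 other pathway genes that passed the test, with the difference in each line as open triangles. Member fits of 1.37 to 1.59 lie between a small HGC27 and a large MKN45 difference, while CHUK, REL and IRAK4 have similar differences in both lines.

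In DMSO alone the lines already stood apart in these genes. Of 4 members measured over the DMSO libraries, CXCL1, CXCL3 and PTGS2 were lower in HGC27 than in MKN45 by at least 1 on the log2(FPKM + 1) scale, and none was higher, where 17.4% of 13031 genes were lower and 14.3% higher. These 3 reached the minimum through MKN45 alone, so their call follows from the filter and only their levels are informative. PTGS2 was at 0.198 FPKM in DMSO HGC27 and 3.86 FPKM in DMSO MKN45, 19.5-fold lower in HGC27 (95% counting interval 13.9 to 28.2). CXCL1 was at least 51.1-fold lower and CXCL3 at least 57.5-fold lower in HGC27, against a floor of 3 reads. NFKBIA was at 7.54 FPKM in DMSO HGC27 and 7.14 FPKM in DMSO MKN45, a ratio of 1.06 (95% counting interval 0.960 to 1.16), and TNFAIP3 had a ratio of 0.998 (0.778 to 1.28). So NFKBIA and TNFAIP3, the latter under the minimum of 1 FPKM, lay close together in the DMSO libraries, while CXCL1, CXCL3 and PTGS2 did not. Other IkB and feedback genes were mixed, with ratios of 0.307 for NFKBIB, 0.269 for ZC3H12A and 1.06 for TNIP2. With 1 library per line, line and library cannot be told apart.

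The order of levels among the members also differed between treatments in MKN45. In periplocymarin MKN45 the order was PTGS2, CXCL1, BIRC3, CXCL8, NFKBIA, CXCL3, CXCL2, TNFAIP3, RELB and ICAM1, and in DMSO MKN45 it was NFKBIA, PTGS2, CXCL1, CXCL3, RELB, BIRC3, TNFAIP3, CXCL8, CXCL2 and ICAM1. By exact Poisson intervals of the reads, CXCL8 and NFKBIA overlapped in the treated library, at 6.22 to 7.54 FPKM and 6.22 to 7.36 FPKM, and so did the neighbours CXCL2, TNFAIP3 and RELB. In DMSO MKN45 the neighbours PTGS2 and CXCL1 overlapped, and BIRC3, TNFAIP3 and CXCL8 each overlapped the next, down to CXCL2, which did not overlap ICAM1. BIRC3 thus stood at rank 3 in periplocymarin and rank 6 in DMSO, and CXCL8 at rank 4 in periplocymarin and rank 8 in DMSO.

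The members did not share a common profile. As a measure of likeness, profiles of log2(FPKM + 1) over the 4 libraries, each minus its own mean, were compared by Euclidean distance. CXCL1 and PTGS2 were 0.28 apart and CXCL8 and BIRC3 0.48 apart, while PTGS2 and NFKBIA were 4.55 apart. Among 11808 other genes, the nearest to CXCL1 were AREG at 0.31, EREG at 0.52 and EDN1 at 0.57, and the nearest to PTGS2 were AREG at 0.36, MACC1 at 0.73 and EREG at 0.74. AREG and EREG encode ligands of the EGF receptor and EDN1 encodes endothelin-1. The nearest to BIRC3 were F3, LMO7 and SEMA3C, at 0.42 to 0.57, and the nearest to CXCL8 were RBM24, LMO7 and CEP295, at 0.29 to 0.39. Over only 4 libraries such distances describe a pattern and carry no test.

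In GRCh38 with GENCODE 29, CXCL8 lies on chromosome 4 from 73740506 to 73743716, CXCL1 from 73869393 to 73871242, CXCL3 from 74036589 to 74038807 and CXCL2 from 74097035 to 74099293, all protein-coding genes that no other gene model overlaps. AREG and EREG lie in the same stretch of chromosome 4, with starts 704.6 and 624.6 kb from that of CXCL8. A window from 73440506 to 74745134, drawn out to AREG after its likeness to CXCL1 had been seen, holds 29 annotated genes, of which 11 were above 0 in MKN45 and 7 were measured there. CXCL8, CXCL1, EREG and AREG were called higher, as were 8.21% of all measured genes, and CXCL3, CXCL2 and MTHFD2L, a mitochondrial folate enzyme, were not. Since AREG and EREG were picked for their pattern, their share among the 7 is no result about the region. AREG was at 29.1 FPKM in periplocymarin MKN45 and 2.59 FPKM in DMSO MKN45, a ratio of 11.2 (95% counting interval 9.48 to 13.3). EREG was at 19.5 FPKM in periplocymarin MKN45 and 2.51 FPKM in DMSO MKN45, a ratio of 7.75 (95% counting interval 7.05 to 8.52). BTC, a further EGF receptor ligand gene there that was under the minimum, was lower, at 0.158 FPKM in periplocymarin MKN45 and 1.78 FPKM in DMSO MKN45. CXCL5, CXCL6, PF4 and PPBP, chemokine genes of the same cluster, were at 0 in all 4 libraries.

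**Figure D5:**
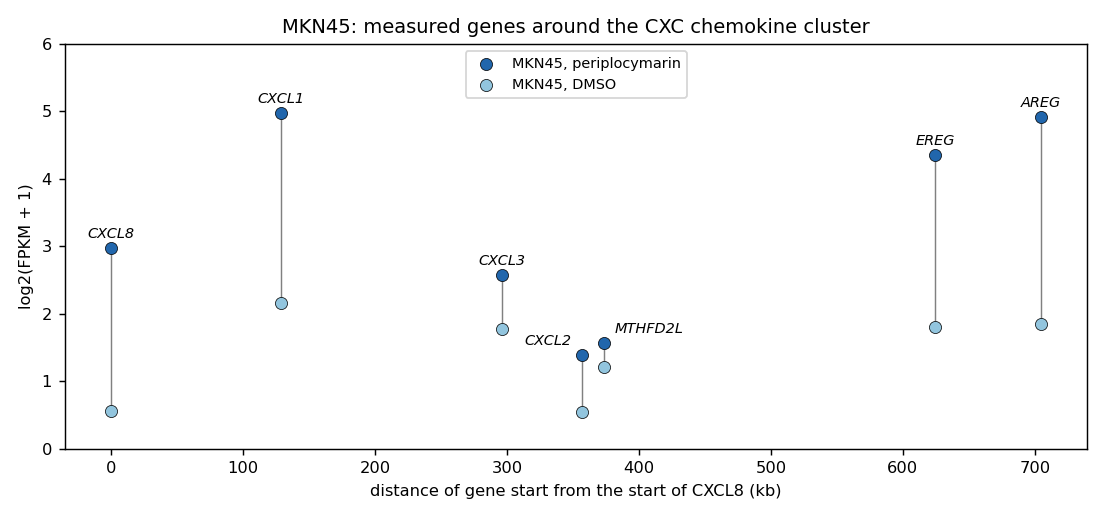
Level on the log2(FPKM + 1) scale of the 7 genes measured in MKN45 around the chemokine cluster, by distance of the gene start from that of CXCL8 in kb, with periplocymarin and DMSO joined by a line. CXCL8, CXCL1, EREG and AREG are well apart between treatments, and MTHFD2L, at 1.97 FPKM in periplocymarin and 1.33 FPKM in DMSO, is not.

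The other members lie on other chromosomes, in the same build and annotation. BIRC3 is on chromosome 11 from 102317450 to 102339403, NFKBIA on chromosome 14 from 35401511 to 35404749 and TNFAIP3 on chromosome 6 from 137867188 to 137883312. PTGS2 is on chromosome 1 from 186671791 to 186680427, and ICAM1 and RELB are on chromosome 19, from 10270835 to 10286615 and from 45001430 to 45038198.

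Lists of 136 other pathway genes were read beside the members. They hold the machinery above these targets, and also other targets, chemokines, prostaglandin genes, decay proteins and adhesion genes. Of 78 that could be tested over both lines, 5 rose and 1 fell, 6.41% and 1.28%, beside 3.49% and 3.29% of all tested genes, and 72 did not pass. Their median fitted difference in log2(FPKM + 1) was 0.17, beside 0.06 over all genes tested. REL, the c-Rel subunit of NF-kB, rose by 1.25 ± 0.29 (limma adjusted p = 0.0389), at 8.82 FPKM in periplocymarin HGC27, 3.74 in DMSO HGC27, 7.52 in periplocymarin MKN45 and 2.11 in DMSO MKN45. It was the 1 of 4 other subunit genes that passed. RELA, the main partner in the canonical dimer, was nearly level at 11.2 and 10.8 FPKM in periplocymarin and DMSO HGC27 and at 18.4 and 17.3 FPKM in periplocymarin and DMSO MKN45. NFKB2 was at 2.58 and 7.60 FPKM in periplocymarin and DMSO HGC27 and at 3.08 and 3.09 FPKM in periplocymarin and DMSO MKN45.

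Of 18 IKK, kinase and adaptor genes 1 rose and 1 fell. CHUK, the IKK alpha kinase, rose by 1.31 ± 0.28 (limma adjusted p = 0.0319), to 33.0 FPKM in periplocymarin HGC27 against 14.2 in DMSO HGC27 and 25.9 in periplocymarin MKN45 against 8.82 in DMSO MKN45. IRAK4, the kinase that interleukin-1 and Toll-like receptors use, fell by 1.67 ± 0.30 (limma adjusted p = 0.0242), to 0.819 FPKM in periplocymarin HGC27 against 4.77 in DMSO HGC27 and 0.522 in periplocymarin MKN45 against 3.84 in DMSO MKN45. None of 5 other IkB family genes passed, at adjusted p of 0.0775 or above in limma, with 1 at an unadjusted p under 0.05 and 0 by limma-voom. NFKBIB had the largest difference, at 13.8 FPKM in periplocymarin HGC27 and 3.17 FPKM in DMSO HGC27, and at 14.6 FPKM in periplocymarin MKN45 and 10.4 FPKM in DMSO MKN45. None of 7 genes of feedback enzymes and their partners passed in limma, with 1 at an unadjusted p under 0.05 and 1 by limma-voom.

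Of 5 tested receptors only TNFRSF12A, the receptor of the cytokine TWEAK, rose, by 1.76 ± 0.30 (limma adjusted p = 0.0242), to 37.1 FPKM in periplocymarin HGC27 against 13.9 in DMSO HGC27 and 60.9 in periplocymarin MKN45 against 12.8 in DMSO MKN45. Of 20 tested genes among 37 other NF-kB targets, GADD45B and SDC4 rose and none fell in limma over both lines. Within MKN45 alone, 3 of the 18 measured genes of that list were called higher and 1 lower. The gene called lower was TNFAIP2, at 1.97 FPKM in periplocymarin MKN45 and 5.28 FPKM in DMSO MKN45. Its ratio there was 0.374 (counting interval 0.323 to 0.431). In HGC27 TNFAIP2 was at 0.0252 FPKM in periplocymarin and 0.282 FPKM in DMSO. GADD45B, a stress-induced signalling protein, rose by 2.23 ± 0.43 (limma adjusted p = 0.0260), to 10.2 FPKM in periplocymarin HGC27 against 3.90 in DMSO HGC27 and 65.0 in periplocymarin MKN45 against 5.90 in DMSO MKN45. SDC4, a cell surface proteoglycan, rose by 1.37 ± 0.28 (limma adjusted p = 0.0292). Of the cytokines on that list TNF and LTB were at 0 in all 4 libraries and IL6 was at most 0.0874 FPKM, while LIF was at 30.7 FPKM in periplocymarin MKN45 and 17.1 FPKM in DMSO MKN45.

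The chemokines had little else of their system beside them. Of 16 other CXC and CC chemokines 7 were at 0 in all 4 libraries and 2 could be tested, CXCL16 and CCL2, of which neither passed in limma, in limma-voom or at an unadjusted p under 0.05. Of 5 chemokine receptor genes none reached the minimum, with CXCR2 at 0 in both periplocymarin libraries, 0.193 FPKM in DMSO HGC27 and 0.0253 FPKM in DMSO MKN45. Around PTGS2, 8 of 18 prostaglandin pathway genes could be tested and none passed in limma, with 1 at an unadjusted p under 0.05 and 0 by limma-voom. PLA2G4A, the phospholipase that frees arachidonic acid, was at 7.03 and 4.75 FPKM in periplocymarin and DMSO HGC27 and at 5.10 and 4.95 FPKM in periplocymarin and DMSO MKN45. PTGES, the inducible prostaglandin E synthase, was at 0.696 FPKM in periplocymarin HGC27 and 1.97 FPKM in DMSO HGC27, and at 0 in periplocymarin MKN45 and 0.0287 FPKM in DMSO MKN45. The other prostaglandin E synthase genes on the list were present, PTGES2 at 11.8 FPKM in periplocymarin MKN45 and 9.57 FPKM in DMSO MKN45 and PTGES3 at 134.3 FPKM in periplocymarin MKN45 and 144.9 FPKM in DMSO MKN45. PTGER2, a receptor of prostaglandin E2, was at 2.30 FPKM in periplocymarin MKN45 and 6.97 FPKM in DMSO MKN45 (limma over both lines, adjusted p = 0.0822). None of 10 genes of AU-rich element binding and decay passed in limma, with 1 at an unadjusted p under 0.05 and 0 by limma-voom. Some proteins of this class shorten the life of CXCL and PTGS2 transcripts. ZFP36 was at 12.8 FPKM in periplocymarin MKN45 and 10.2 FPKM in DMSO MKN45. ZFP36L2 went the other way in MKN45, at 36.42 FPKM in periplocymarin and 62.55 FPKM in DMSO, and was at 51.73 and 22.15 FPKM in periplocymarin and DMSO HGC27. Whether these levels bear on the members was not tested.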

How the data were processed

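The authors deposited FPKM for each gene and library, a unit read from the values since no file header names it. Per the submitters' processing notes, HISAT2 2.1.0, fastp 2.0 and build hg38 are named, with no role or order. A counter, annotation or strand setting is not given in the sources used here. The value of 1 read per library was found from the steps between values, and the length of a gene in GENCODE 29 was kept where reads were then whole within 1e-06 reads (15204 of 30457 genes above 0), and otherwise searched, which left 3 genes unresolved. A searched length may be off by a whole factor. The implied factors of 0.946 and 1.20 for periplocymarin and DMSO HGC27 and of 0.862 and 1.01 for MKN45 lay close to trimmed-mean factors recomputed from the reads. FPKM therefore appears to carry a composition factor.

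Groups came from the sample titles. limma 3.58.1 in R 4.3.3 (limma-trend) was fitted to log2(FPKM + 1) over genes averaging 1 FPKM and 10 recovered reads or more, with cell line as a block, because a pair of libraries shares its line. Each arm holds the 2 lines. With line as a block, p-values set the mean treatment difference against its disagreement between the lines. That disagreement has 1 residual degree of freedom per gene and was moderated with 8.59 prior ones from other genes. The scripts were tested on simulated data. The 10 members and the pathway lists were chosen with earlier results of these data known. List genes are named where they passed the test or were among the 4 largest mean differences of their list, not all of which are printed. BTC, PTGES, PTGES2, PTGES3, CXCR2, TNF, LTB, IL6, LIF, IRAK1, MYD88, OTULIN, ZFP36L2 and the chemokines named at 0 were chosen after their values were seen. Alternatives were a pseudocount of 0.1 FPKM, no filter, a floor of 10 FPKM, no read minimum, quantile normalization, library totals, limma-voom and no line block.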

Additional observations from a re-analysis of the deposited data

Results flagged for a closer look

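A ratio of periplocymarin over DMSO on opposite sides of 1 in the 2 lines, each beyond its counting interval, was seen for 4 of the genes named by rule. How many of all measured genes do the same was not counted, so this number is no result about the pathway. The rule ranks list genes by the mean of their 2 line differences, where opposite directions cancel, so it tends to pass over such genes. OTULIN, not named by the rule, was at 3.25 and 4.66 FPKM in periplocymarin and DMSO HGC27 and at 15.81 and 8.79 FPKM in periplocymarin and DMSO MKN45. ZFP36L2 was higher after treatment in HGC27 and lower in MKN45. The difference between the lines was not tested for any of the 4. PTGS2 had a ratio of 0.196 in HGC27, from 5 and 35 reads, and 10.7 in MKN45. TNFRSF1A, the main TNF receptor, had a ratio of 1.29 in HGC27 and 0.563 in MKN45, at 15.7 and 12.2 FPKM in periplocymarin and DMSO HGC27 and at 9.03 and 16.0 FPKM in periplocymarin and DMSO MKN45. IL1RAP, the co-receptor of interleukin-1, had 0.774 in HGC27 and 1.96 in MKN45. CXCL16, a membrane-bound chemokine, had 0.646 in HGC27, where it was under 1 FPKM, and 1.72 in MKN45, at 30.9 FPKM in periplocymarin and 18.0 FPKM in DMSO. With libraries scaled to their totals alone, the HGC27 ratio of TNFRSF1A was 1.02 with a counting interval of 0.948 to 1.09, so its opposite direction was lost, while the other 3 kept theirs, PTGS2 at 0.154 in HGC27 and 9.11 in MKN45.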

How the results depend on the processing

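Over both lines no member passed by limma-trend, while 2 passed with a pseudocount of 0.1 FPKM (CXCL8 and BIRC3, limma adjusted p = 0.0290 and 0.0463) and 4 with limma-voom on recovered reads (adjusted p of 0.00720 to 0.0158). Of those 4, CXCL1 and PTGS2 were not higher after treatment in HGC27. The remaining alternatives gave 0 members. Of the pathway genes 6 passed, and 0 did with no low-value filter or with no replicate block, that is with cell line left out, settings under which no gene of the whole table passed in limma, with 4306 and 695 genes at an unadjusted p under 0.05. Over its alternatives the adjusted p ran from 0.00720 to 0.896 for BIRC3, 0.00751 to 0.895 for CXCL8, 0.0158 to 0.983 for CXCL1 and 0.0158 to 0.985 for PTGS2. CHUK missed the threshold under quantile normalization (limma adjusted p = 0.0680, range over its alternatives 0.000533 to 0.830). The fitted NFKBIA difference turned to -0.13 with library totals alone and was not called under any setting. Within MKN45 the count of members called higher was 7 with a pseudocount of 0.1 FPKM and 2 at a floor of 10 FPKM, where only 2 members remained. With quantile normalization it was 5, as CXCL2 reached 1.05. The causes were not tested. In HGC27, 9 members stood under 1 FPKM, and depth limits what can be read there. No line can be left out of the fit with a test remaining, since that leaves 1 library per arm.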

Other observations

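Some genes of the receptor pathway that leads to NF-kB were lower in HGC27 than in MKN45 in DMSO, and others were not. Of 78 list genes measured over the DMSO libraries, 23 were lower in HGC27 by at least 1 on the log2(FPKM + 1) scale and 8 higher. These were 29.5% and 10.3%, beside 17.4% and 14.3% of all measured genes. The 78 come from lists that also hold other targets and prostaglandin genes. Genes near 0 in HGC27, such as IRAK1, LTBR and TNFRSF1B, were measured through MKN45 alone. Their call follows from the filter, so these shares are no result about the pathway. The genes named here were picked after their values were seen and carry no test. IRAK1, which IRAK4 activates, was at 0.169 FPKM in periplocymarin HGC27, 0.116 in DMSO HGC27, 39.8 in periplocymarin MKN45 and 41.7 in DMSO MKN45. MYD88, the adaptor that recruits both kinases, was at 1.31 and 1.40 FPKM in periplocymarin and DMSO HGC27 and at 11.0 and 8.39 FPKM in periplocymarin and DMSO MKN45. The receptor genes LTBR and TNFRSF1B were at or under 0.0207 FPKM in both HGC27 libraries, and at 8.48 and 11.3 FPKM in periplocymarin MKN45 and 7.36 and 6.50 FPKM in DMSO MKN45. In the other direction, IRAK4 was at 4.77 FPKM in DMSO HGC27 and 3.84 FPKM in DMSO MKN45, and NFKB2 was at 7.60 FPKM in DMSO HGC27 and 3.09 FPKM in DMSO MKN45. IKBKE, an IKK-related kinase, was at 0.134 FPKM in periplocymarin HGC27 and 2.36 FPKM in DMSO HGC27, and at 1.73 and 2.67 FPKM in periplocymarin and DMSO MKN45. EFNA1, an ephrin ligand on the target list, was at 22.7 FPKM in periplocymarin HGC27 and 4.78 FPKM in DMSO HGC27 but 8.93 and 7.81 FPKM in periplocymarin and DMSO MKN45, so not every target on the list was higher mainly in MKN45.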
